A study of Mus musculus with 20 samples.

Results

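The 54 genes described here carry out DNA replication and mitosis in dividing cells. They were taken by symbol from the transcript tables of all 20 libraries, which list 23992 gene symbols, and each symbol was represented by the transcript with the most reads over the 20 libraries. They fall into 7 role groups: 11 origin licensing genes, 6 helicase activation genes, 16 replication fork genes, 5 nucleotide supply genes, 2 maintenance methylation genes, 3 E2F activators and 11 mitosis genes. All 54 matched their transcript, on the same chromosome, in the RefSeq annotation of GRCm38.p6.

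RNA was sequenced from mouse regulatory T cells (Tregs) and CD8+ T cells of spleen and lymph node that were cultured briefly with cytokine. Tregs were sorted as GFP+ CD4+ cells from B6-Foxp3EGFP mice, a reporter strain in which cells expressing Foxp3 also express GFP. CD8+ T cells were isolated by kit from C57BL/6J mice, although the sample records name C57BL/6N. Both cell types were exposed for 90 min or 4 hr to IL-2 or to IL-2-REH, each at 200 nM, or were taken without cytokine at 0 hr (unstimulated). IL-2-REH is a partial agonist of the IL-2 receptor. No library came from cells held for 90 min or 4 hr without cytokine. Cytokine and time in culture therefore cannot be told apart in comparisons with unstimulated cells. Each of the 5 Treg groups has 3 libraries and each of the 5 CD8+ groups has 1, so that only Treg differences could be tested. The records do not say that replicates came from separate animals, and p-values therefore measure only the spread between these libraries.

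In the G1 phase of the cell cycle, the origin recognition complex, Cdc6 and Cdt1 load the Mcm2 to Mcm7 helicase onto replication origins. Cdc45 and the GINS complex then turn the helicase on, and polymerases, the sliding clamp Pcna and its loader copy the DNA. Many of the genes are switched on by E2F factors as cells leave quiescence, and the mitotic genes follow later through elements called CHR. IL-2 drives this program in T cells, usually over a longer time than the hours sampled here.

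Promoters of the 54 genes are shown first, with the short elements through which E2F factors and CHR-binding complexes are known to act. Of the 54, 44 had an entry among 32851 RefSeq promoters of GRCm38.p6, each spanning 250 bases before and 50 bases after an annotated start. An E2F site (TTTGGCGC, TTTCCCGC, TTTGCCGC or TTTCGCGC, either strand) was present for 17 of the 44 genes (38.6%) and in 2.26% of all promoters. Origin licensing genes held it in 7 of 9 cases and mitosis genes in 1 of 9. A CHR element (TTTGAA, either strand) was present for 13 of 44 genes and in 17.9% of all promoters, with 6 of 9 mitosis genes and 1 of 9 origin licensing genes. A CCAAT box (either strand) was present for 31 of 44 genes and in 37.4% of all promoters, with 8 of 9 mitosis genes and 7 of 9 origin licensing genes. No test compared the role groups, and several hold few genes: the CHR element was also present for 2 of 3 helicase activation genes and 2 of 3 E2F activators, and none of the 5 nucleotide supply genes held an E2F site or a CHR element. Since 7 genes have several promoters, a gene had more than 1 chance to hold a match, and a match describes letters, not binding. The following windows of 60 bases are printed 5′ to 3′ on the strand of the gene with the E2F, CHR and CCAAT letters of either strand in capitals, so that a site on the opposite strand appears as its reverse complement, the first 3 as licensing genes with an E2F site and the others as genes with a CHR element.
Orc1 (chr4:108579394-108579453, plus strand): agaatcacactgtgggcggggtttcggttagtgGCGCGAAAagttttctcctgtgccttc
Mcm5 (chr8:75109334-75109393, plus strand): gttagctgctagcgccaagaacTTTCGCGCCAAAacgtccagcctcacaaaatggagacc
Mcm6 (chr1:128359719-128359778, minus strand): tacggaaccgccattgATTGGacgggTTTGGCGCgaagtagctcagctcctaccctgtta
Cdk1 (chr10:69352913-69352972, minus strand): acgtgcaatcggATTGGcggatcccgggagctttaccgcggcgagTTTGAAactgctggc
Top2a (chr11:99024190-99024249, minus strand): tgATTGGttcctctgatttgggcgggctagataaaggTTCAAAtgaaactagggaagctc
Mki67 (chr7:135716445-135716504, minus strand): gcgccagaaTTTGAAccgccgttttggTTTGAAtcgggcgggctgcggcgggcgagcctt
E2f2 (chr4:136180722-136180781, plus strand): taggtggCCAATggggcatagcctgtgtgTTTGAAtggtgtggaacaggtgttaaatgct
In the Mcm5 window 2 E2F sites overlap, and the E2f2 window lies before the downstream one of its annotated starts.

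Library depth ranged from 20201392 to 63903764 reads on genes, with the lowest in the IL-2 4 hr Treg library of replicate 3, and every member had at least 19 reads in every Treg library and at least 29 in every CD8+ library. The sorted populations matched their labels: Foxp3 lay between 65.2 and 252 RPKM (a read number adjusted for how long the exons are and how deep the library is) in Tregs and Cd8a between 103 and 256 RPKM in CD8+ T cells. Treg unstimulated replicate 1 stood apart from its 2 partners. Of the 54 genes, 39 had their lowest unstimulated RPKM in it, as did 53.0% of all 15009 genes tested, and after TMM scaling (edgeR's correction for library composition) 36 of 54 did, against 43.2% of all. Replicate 2 held the highest unstimulated value for 41 of 54 genes by RPKM and for 23 of 54 after TMM scaling, so the order of the upper libraries depended on the scaling. The summed RPKM of 5 macrophage markers was 14.3, 71.4 and 56.4 in unstimulated replicates 1, 2 and 3 and 7.30 to 39.6 in stimulated Tregs. That of 3 NK cell markers was 1.14, 6.37 and 4.36 in the same unstimulated libraries and 0.49 to 4.59 in stimulated Tregs. That of 12 erythroid markers was 199 to 359 in replicate 3 of every Treg group and 8.41 to 31.98 in the other replicates. None of these markers was at 0 in any Treg group. The part of such cells in the results below was not tested, and fewer cells of a type cannot be told apart from less RNA per cell in bulk samples. Values with and without unstimulated replicate 1 are therefore given. Unless stated otherwise only that library was left out, and replicate 1 of the stimulated groups stayed in. After TMM scaling those libraries also often held the lowest value of their group. At 90 min they did for 31 of 54 genes after IL-2 (43.4% of all) and 35 after IL-2-REH (44.1%). At 4 hr they did for 27 (31.7%) and 33 (32.3%).

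The unstimulated Treg libraries already held reads of all 54 genes, down to 0.401 RPKM for Bub1 in replicate 1. The part of other cell types in these reads was not tested. The mean over 20 libraries was highest for the sliding clamp Pcna at 110 RPKM, the helicase subunit Mcm6 at 47.0 and the single-strand binding protein Rpa1 at 41.7. It was lowest for the mitotic checkpoint kinase Bub1 at 0.648, the helicase loader Cdc6 at 0.638 and the origin recognition subunit Orc1 at 0.471. In all, 15 of 54 genes averaged at least 10 RPKM and 4 averaged under 1. The 6 subunits of the Mcm2 to Mcm7 helicase together made 113 to 147 RPKM in the 15 Treg libraries and 119 to 135 in the 5 CD8+ libraries, whereas the sum over the 11 mitosis genes was 23.2 to 67.4 in Tregs and 17.4 to 26.5 in CD8+ T cells. Helicase sums therefore varied little between libraries and mitosis sums nearly 3-fold among the unstimulated Tregs alone.

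Stimulated Tregs were compared with unstimulated Tregs of 0 hr, so each difference holds both the cytokine and the time in culture. The test was edgeR's quasi-likelihood test on read counts with Benjamini-Hochberg adjustment over 15009 genes. None of the 54 genes passed an adjusted p of 0.05. For IL-2 at 90 min 0 of 54 were called, where 0.853% of all genes were. For IL-2-REH at 90 min 0 were called, where 0.0933% of all genes were. For IL-2 at 4 hr 0 were called against 2.27% of all genes, and for IL-2-REH at 4 hr 0 against 0.313%. With shares this small among all genes, a count of 0 in 54 was near the background. In the same order 4, 3, 10 and 9 of the 54 had an unadjusted p under 0.05, and of these all but 1 of the IL-2 4 hr genes and 2 of the IL-2-REH 4 hr genes were lower than in unstimulated cells. DESeq2 called 1 gene for IL-2 at 90 min (3.68% of all genes), 4 for IL-2 at 4 hr (6.77% of all) and 0 for IL-2-REH at either time. Limma on log2(RPKM + 1) called 0 in each, with 5, 3, 10 and 4 at an unadjusted p under 0.05. The median log2 fold change of the 54 was -0.20 and -0.18 at 90 min after IL-2 and IL-2-REH and -0.13 after each at 4 hr, whereas the medians of all genes were -0.06, -0.05, 0.00 and 0.01. Each comparison shares the same 3 unstimulated libraries.

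Leaving out unstimulated replicate 1 moved this count. With 14 Treg libraries, 2 genes were called lower for IL-2 at 90 min (5.8% of all genes were lower), 4 lower for IL-2-REH at 90 min (5.14% of all), 5 lower for IL-2 at 4 hr (4.59%) and 3 lower for IL-2-REH at 4 hr (3.62%). In addition, 1 gene was called higher for IL-2-REH at 90 min, where 6.95% of all genes were higher. Of 54, these counts were again close to the share among all genes.

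**Figure D1:**
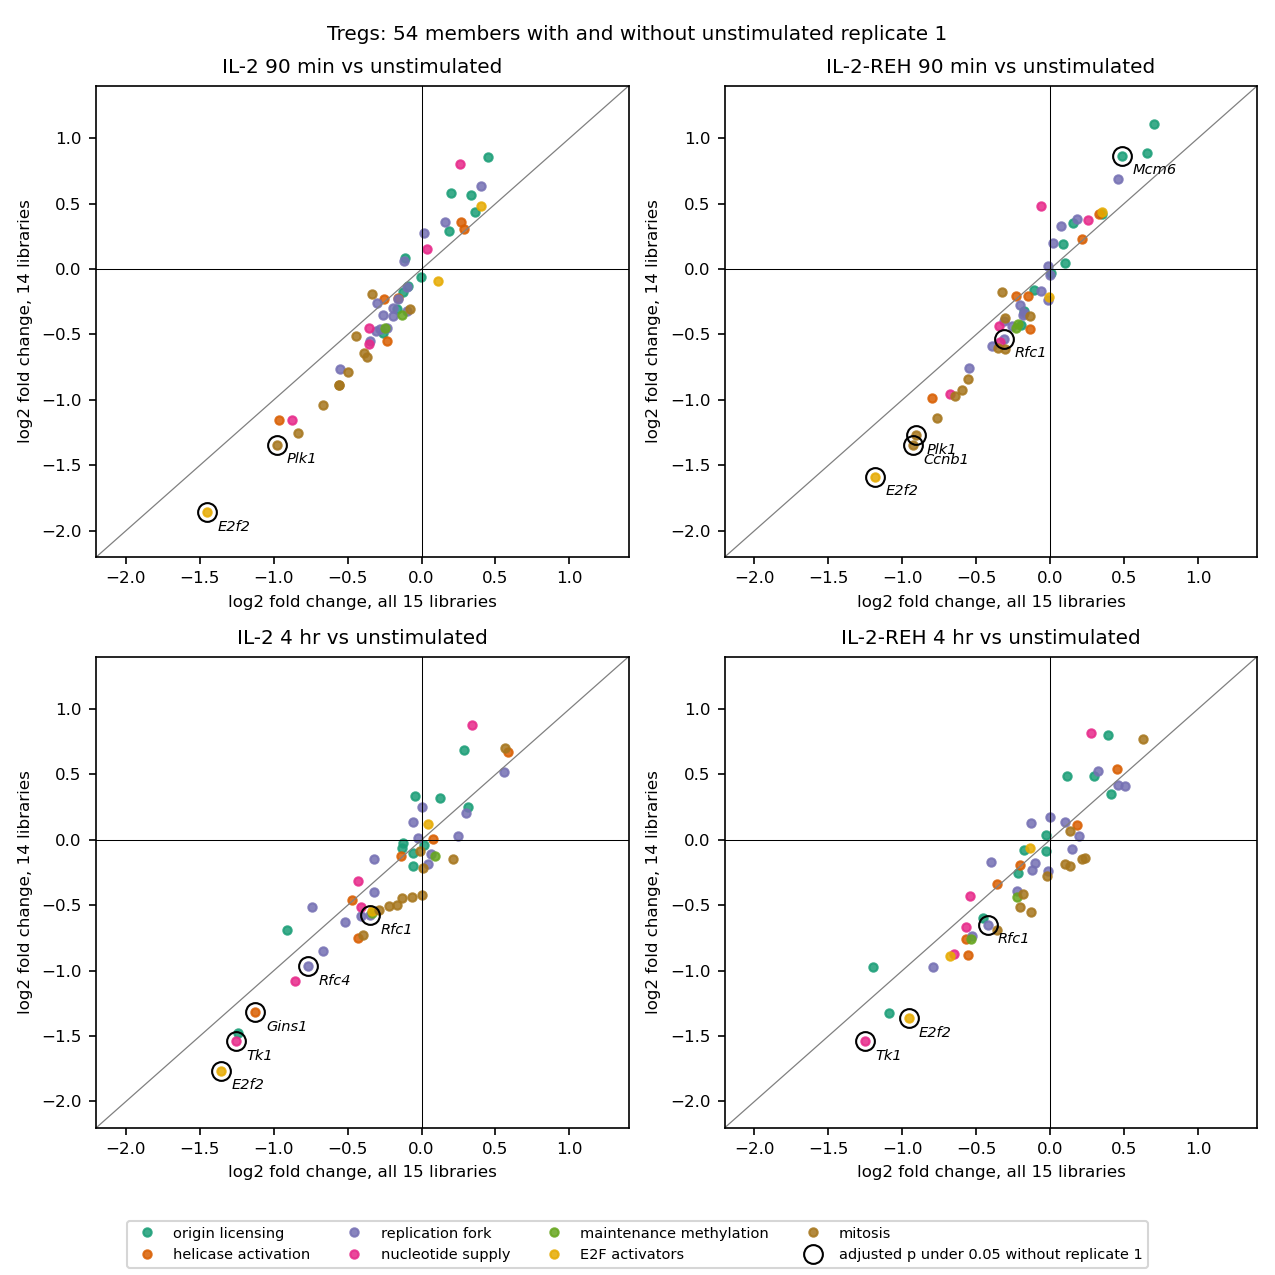
Log2 fold change against unstimulated Tregs of each of the 54 genes in 4 comparisons, with all 15 libraries on the x axis and without unstimulated replicate 1 on the y axis, coloured by role. Circles mark genes with an adjusted p under 0.05 without that library, among them E2f2 at -1.86 for IL-2 at 90 min, where it was -1.45 with all libraries.

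The origin licensing genes had values in both directions, and none was called with all 15 libraries. Their median log2 fold change was 0.00 after IL-2 and 0.10 after IL-2-REH at 90 min, and -0.06 and -0.03 at 4 hr. Mcm6, the most abundant helicase subunit, stood at 61.2, 38.3 and 37.6 RPKM in unstimulated replicates 1, 2 and 3. It stood at 53.7, 39.7 and 52.7 RPKM after IL-2 and at 62.7, 47.6 and 67.4 RPKM after IL-2-REH at 90 min, so only unstimulated replicate 1 overlapped with the stimulated values. Its IL-2-REH 90 min log2 fold change was 0.49 with all libraries and 0.87 without unstimulated replicate 1, where it was called (adjusted p = 0.036). Mcm7, which follows it in abundance, stood at 16.6, 24.5 and 20.4 RPKM unstimulated and at 23.3, 27.2 and 30.1 RPKM after IL-2-REH at 4 hr, a log2 fold change of 0.41 ± 0.17 (SE, adjusted p = 0.325). The Mcm7 gene overlaps Ap4m1 and 3 miRNA genes, and since the use of strand in counting was not stated, reads in such overlaps are uncertain, as they are for 19 of the 54 genes.

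Cdt1, which loads the helicase together with Cdc6, had the highest log2 fold change of the 54 after 90 min of either cytokine. Cdt1 stood at 20.2, 12.8 and 11.4 RPKM in unstimulated replicates 1, 2 and 3, at 16.6, 21.1 and 18.0 RPKM after IL-2 and at 15.8, 27.8 and 22.4 RPKM after IL-2-REH at 90 min. Replicates 2 and 3 were higher and replicate 1 lower with cytokine, and the same held at 4 hr with 10.3, 22.8 and 20.04 RPKM after IL-2 and 12.3, 25.1 and 22.6 RPKM after IL-2-REH. The 90 min log2 fold changes were 0.45 for IL-2 and 0.70 for IL-2-REH, and neither was called. Without unstimulated replicate 1 they were 0.86 (adjusted p = 0.161) and 1.11 (0.079). Without replicate 1 of all groups Cdt1 was called higher in all 4 comparisons. It was at 0.996 and 1.34 for IL-2 and IL-2-REH at 90 min (adjusted p = 0.004 and 0.001) and at 0.95 and 1.05 at 4 hr (0.007 and 0.005). That fit called many genes: 1315, 1264, 980 and 735 of 14477 were higher in the same order. With all libraries 117, 14, 176 and 24 of 15009 were. Orc1, the largest subunit of the origin recognition complex, stood at 0.721, 0.546 and 0.574 RPKM unstimulated. At 90 min it was 0.329, 0.917 and 0.812 RPKM after IL-2 and 0.434, 1.24 and 0.933 RPKM after IL-2-REH, and at 4 hr 0.148, 0.445 and 0.362 RPKM after IL-2 and 0.205, 0.432 and 0.186 RPKM after IL-2-REH. Every 4 hr value was below every unstimulated value, yet the log2 fold change of -1.201 for IL-2-REH at 4 hr had an adjusted p of 0.372. Cdc6 stood at 0.557, 1.24 and 1.14 RPKM unstimulated and at 0.332, 0.723 and 0.140 RPKM after IL-2 at 4 hr, the last from 21 reads.

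Among the helicase activation genes, the median log2 fold change lay between -0.29 and -0.14 in the 4 comparisons. Gins1, a subunit of the GINS complex, stood at 1.07, 2.17 and 1.89 RPKM unstimulated and at 0.684, 0.775 and 0.846 RPKM after IL-2 at 90 min. All stimulated values of Gins1 at 90 min after IL-2 were below all unstimulated ones, a log2 fold change of -0.96 (adjusted p = 0.2505). At 4 hr it was 0.818, 0.860 and 0.529 RPKM after IL-2, the last from 19 reads, and 0.780, 1.23 and 1.37 RPKM after IL-2-REH. The IL-2 4 hr log2 fold change of -1.12 was not called (adjusted p = 0.123) and was called without unstimulated replicate 1, at -1.32 (adjusted p = 0.039). Gins4 of the same complex stood at 13.1, 12.7 and 13.0 RPKM unstimulated and at 14.7, 14.98 and 25.1 RPKM after IL-2 at 4 hr. Its log2 fold change of 0.59 ± 0.26 (SE, adjusted p = 0.260) rested mostly on replicate 3. Cdc45, the helicase partner, ranged from 0.918 to 3.12 RPKM over the 15 Treg libraries.

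Most of the 16 replication fork genes lay below their unstimulated level, 13 and 12 of them at 90 min and 10 and 10 at 4 hr after IL-2 and IL-2-REH. Their median log2 fold changes were -0.20, -0.12, -0.19 and -0.06. Pcna, the sliding clamp, stood at 146, 102 and 123 RPKM unstimulated and at 129, 152 and 166.98 RPKM after IL-2 and 144, 152 and 172 RPKM after IL-2-REH at 90 min. At 4 hr it was 72.3, 101 and 46.7 RPKM after IL-2 and 81.8, 102 and 103 RPKM after IL-2-REH, below every 90 min value. Pcna is described further with the change over time.

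The clamp loader subunits Rfc1 and Rfc4 were lower in stimulated cells than in unstimulated replicates 2 and 3. Rfc1 stood at 5.36, 11.6 and 10.7 RPKM unstimulated and between 6.20 and 7.58 RPKM in all 12 stimulated Treg libraries. Unstimulated replicate 1 was thus the lowest Rfc1 value of all, and the others were the highest. Without it, Rfc1 was called lower for IL-2-REH at 90 min (log2 fold change -0.53, adjusted p = 0.041), IL-2 at 4 hr (-0.57, 0.038) and IL-2-REH at 4 hr (-0.65, 0.026). Rfc4 stood at 3.04, 6.21 and 5.57 RPKM unstimulated and at 2.61, 3.36 and 2.24 RPKM after IL-2 at 4 hr. Its log2 fold change was -0.77 (adjusted p = 0.135), and without unstimulated replicate 1 it was -0.97 (0.024). Rpa1, which coats single-stranded DNA, stood at 40.7, 46.5 and 42.6 RPKM unstimulated and between 28.6 and 55.7 RPKM over all Treg libraries. Rfc2 had the highest log2 fold change of the fork genes for IL-2-REH at 4 hr, 0.50 ± 0.20 (SE, adjusted p = 0.296), with 13.9, 21.5 and 18.8 RPKM before and 24.1, 22.2 and 29.0 RPKM after.

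The nucleotide supply genes had the lowest group median at 4 hr apart from the E2F activators after IL-2-REH, -0.43 after IL-2 and -0.57 after IL-2-REH. Thymidine kinase Tk1, which salvages thymidine, stood at 2.93, 9.15 and 5.95 RPKM unstimulated. At 4 hr Tk1 was 1.67, 2.81 and 2.48 RPKM after IL-2 and 1.74, 2.98 and 2.57 RPKM after IL-2-REH, and only unstimulated replicate 1 overlapped with these values. The log2 fold change was -1.25 ± 0.40 (SE) for each cytokine, with adjusted p of 0.130 for IL-2 and 0.191 for IL-2-REH. With the replicate number as a block, that is, with same-numbered libraries compared within each replicate, Tk1 was called for both, at -1.19 (adjusted p = 0.014) and -1.195 (0.023). It was also called without unstimulated replicate 1, at -1.54 for each (adjusted p = 0.030 and 0.035). Rrm2, the small subunit of ribonucleotide reductase, was called with the block for IL-2 at 4 hr only, at -0.84 (adjusted p = 0.030), from 4.58, 10.1 and 8.78 RPKM to 3.37, 6.03 and 2.93 RPKM. Rrm1, its large subunit, stood at 13.2, 13.0 and 12.1 RPKM unstimulated and at 8.24, 11.1 and 8.09 RPKM after IL-2 at 4 hr. Thymidylate synthase Tyms stood at 9.39, 5.54 and 3.94 RPKM unstimulated, and replicate 1 was its highest value in all 5 Treg groups. The Tyms transcript with the most reads, 1 of 2 listed, is a non-coding RefSeq record. All Tyms values given here are those of that record, not of a coding transcript. Over the whole table, the block called 1 of the 54 genes for IL-2 at 90 min (0.46% of all genes were called lower), 3 for IL-2 at 4 hr (4.06%) and 1 for IL-2-REH at 4 hr (2.02%), all of them lower.

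The maintenance methylation genes copy DNA methylation to the new strand. The methyltransferase Dnmt1 stood at 11.6, 26.2 and 20.4 RPKM unstimulated and between 13.3 and 25.1 RPKM in stimulated Tregs, inside the unstimulated spread. Its recruiter Uhrf1 stood at 3.35, 7.31 and 6.62 RPKM unstimulated and between 2.93 and 5.67 RPKM in stimulated Tregs. Neither was called in any of the 4 comparisons with all 15 libraries.

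E2f2, an E2F activator of replication genes, had the lowest log2 fold change of the 54 after IL-2 at both times. It stood at 2.06, 11.2 and 7.71 RPKM in unstimulated replicates 1, 2 and 3. After IL-2 it was 1.67, 2.94 and 1.91 RPKM at 90 min and 1.82, 3.48 and 2.23 RPKM at 4 hr, and after IL-2-REH it was 2.39, 3.29 and 2.28 RPKM at 90 min and 2.84, 4.54 and 2.99 RPKM at 4 hr. The 12 stimulated values lay below unstimulated replicates 2 and 3 without exception, and 9 of the 12 lay above replicate 1. The group means were 6.98 ± 4.60 RPKM unstimulated and 2.18 ± 0.675 RPKM after IL-2 at 90 min (SD, n = 3). The log2 fold changes for IL-2 were -1.45 ± 0.43 (SE, adjusted p = 0.158) at 90 min and -1.36 ± 0.43 (0.121) at 4 hr. Those for IL-2-REH were -1.18 (adjusted p = 0.396) and -0.96 (0.346).

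The call on E2f2 depended on how the unstimulated libraries were treated. With the replicate block it was called after IL-2 at 90 min (-1.36, adjusted p = 0.021) and at 4 hr (-1.23, 0.018), but not after IL-2-REH (-1.05, 0.177, and -0.81, 0.118). Without unstimulated replicate 1 it was called in all 4 comparisons, at -1.86, -1.59, -1.76 and -1.37 for IL-2 and IL-2-REH at 90 min and then at 4 hr (adjusted p = 0.003, 0.006, 0.005 and 0.021). The difference between cytokines itself was not called for E2f2 at either time. The macrophage marker sum given above was also highest in unstimulated replicates 2 and 3. The NK marker sum was highest in unstimulated replicate 2, but IL-2 4 hr replicate 2 at 4.59 lay above unstimulated replicate 3 at 4.36. E2f1 and E2f3, the other activators, ranged from 0.904 to 2.68 RPKM and from 0.800 to 2.47 RPKM over the Treg libraries.

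**Figure D2:**
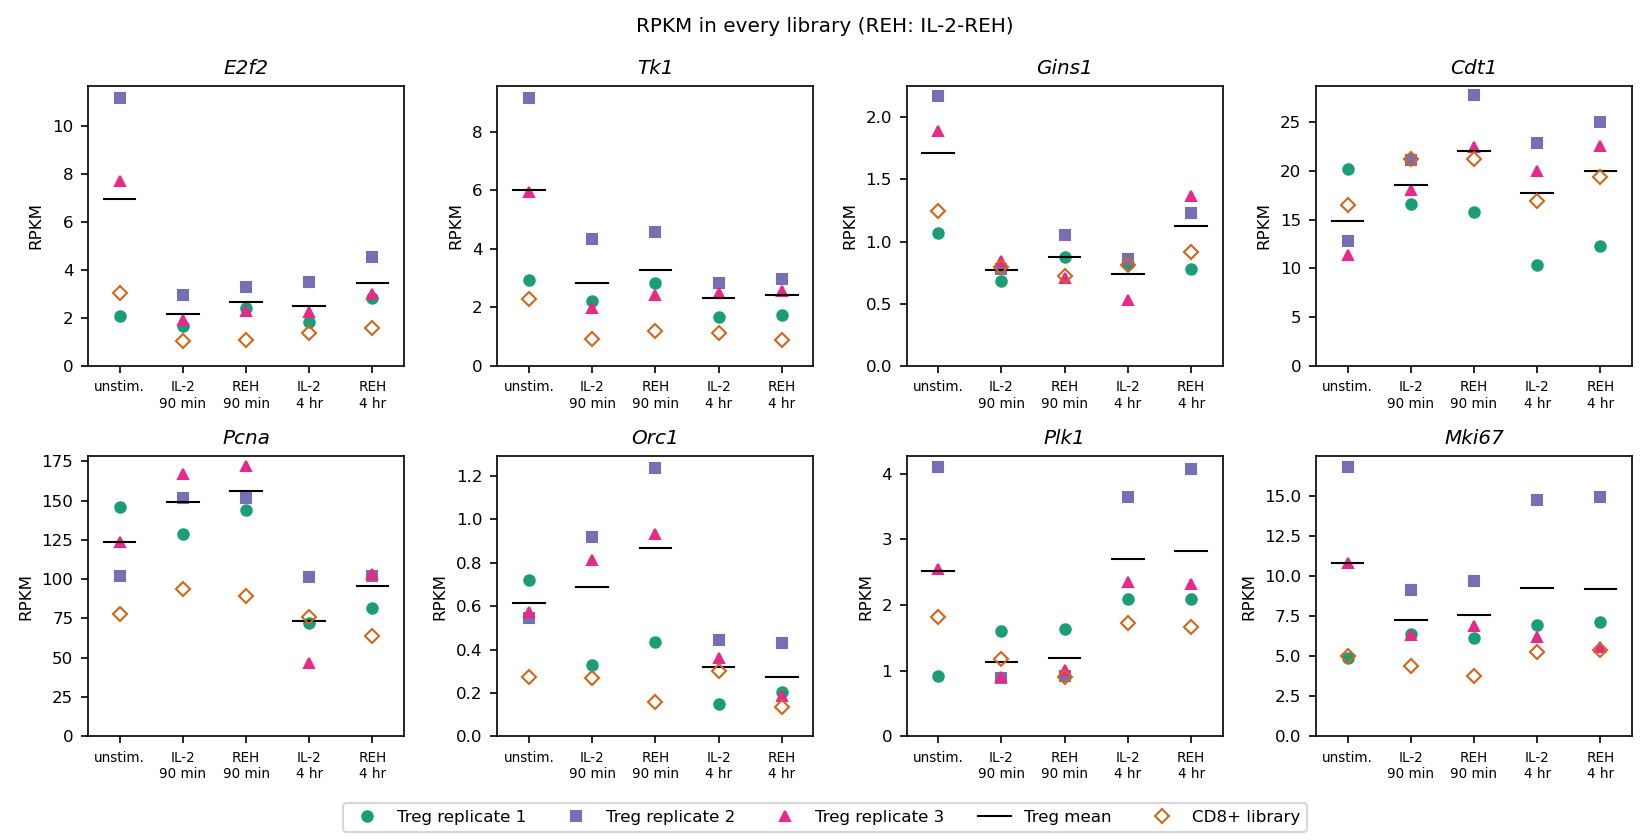
RPKM of 8 genes in every library, with the 3 Treg replicates as separate symbols, the Treg group mean as a bar and the CD8+ library as an open diamond, for unstimulated cells and each cytokine and time. E2f2 and Tk1 were high in unstimulated replicates 2 and 3, and Pcna and Orc1 were lower at 4 hr than at 90 min.

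The median of the mitosis genes lay below 0 at 90 min and near 0 at 4 hr, and none of the 11 was called with all 15 libraries. All 11 had a log2 fold change below 0 at 90 min after each cytokine, with medians of -0.50 and -0.56, and 4 of 11 and 6 of 11 were above 0 at 4 hr, with medians of -0.06 and 0.10. The summed RPKM of the 11 was 23.2, 67.4 and 45.6 unstimulated, 30.1, 35.9 and 25.5 after IL-2 and 28.8, 35.6 and 26.6 after IL-2-REH at 90 min. It was higher than in unstimulated cells in replicate 1 and lower in replicates 2 and 3. At 4 hr the sums were 33.4, 61.5 and 30.6 after IL-2 and 37.4, 61.9 and 33.7 after IL-2-REH.

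The proliferation marker Mki67 showed the pattern of the group, with 4.88, 16.8 and 10.8 RPKM unstimulated, 6.34, 9.09 and 6.29 RPKM after IL-2 at 90 min and 6.92, 14.7 and 6.17 RPKM after IL-2 at 4 hr. Topoisomerase Top2a, which untangles sister chromatids, stood at 6.71, 17.0 and 11.8 RPKM unstimulated, at 8.83, 11.5 and 8.91 RPKM after IL-2 at 90 min and at 8.03, 15.3 and 10.2 RPKM at 4 hr. For both genes the unstimulated replicates spanned all stimulated values. The mitotic kinase Plk1 stood at 0.913, 4.10 and 2.55 RPKM unstimulated, at 1.60, 0.891 and 0.905 RPKM after IL-2 and at 1.63, 0.923 and 1.009 RPKM after IL-2-REH at 90 min. Its log2 fold changes were -0.98 ± 0.39 (SE, adjusted p = 0.291) for IL-2 and -0.91 ± 0.39 (0.417) for IL-2-REH. Without unstimulated replicate 1 they were called, at -1.34 (adjusted p = 0.014) and -1.27 (0.020). Cyclin B1 (Ccnb1), a partner of Cdk1, stood at 0.632, 3.89 and 2.51 RPKM unstimulated and at 1.14, 1.23 and 0.839 RPKM after IL-2-REH at 90 min. Its log2 fold change of -0.93 was called only without unstimulated replicate 1, at -1.35 (adjusted p = 0.041). Birc5 (survivin), a subunit of the chromosomal passenger complex, had the highest log2 fold changes of the group at 4 hr, 0.56 after IL-2 and 0.63 after IL-2-REH, neither called.

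To ask whether the partial agonist acted differently, IL-2-REH was compared with IL-2 at the same dose and time, 1 pair of treatments at each of 2 times. Of the 54 genes 0 were called at 90 min, where 0.0133% of all genes were, and 0 at 4 hr, where 0.0267% were. At an unadjusted p under 0.05 there were 0 and 0 genes by edgeR, and 0 and 1 with the replicate block, which called none. DESeq2 gave 0 and 2 and limma 0 and 0, and each called none. The median difference was 0.02 at 90 min and 0.05 at 4 hr, against 0.02 and 0.01 for all genes, and every adjusted p of the 54 rounded to 1.0.

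Intervals of the difference are from the fit without the replicate block. The 95% interval of the difference stayed within 2-fold either way for 44 of 54 genes at 90 min and for 40 of 54 at 4 hr. For the remaining genes a difference of 2-fold was not outside the interval, and the widest bounds over the 54 were -1.31 and 1.49 at 90 min and -1.48 and 1.38 at 4 hr. At 90 min the lowest differences were those of Tyms at -0.32 and E2f3 at -0.12, and the highest those of Orc1 at 0.32 and Rpa1 at 0.29 (interval -0.12 to 0.70). Rpa1 stood at 37.3, 28.6 and 29.99 RPKM after IL-2 and at 43.6, 34.9 and 38.5 RPKM after IL-2-REH, higher in each same-numbered pair although the ranges overlapped. At 4 hr the lowest were Mcm2 at -0.40 (interval -0.82 to 0.02) and E2f3 at -0.34, and the highest were Gins1 at 0.56 and the primase subunit Prim2 at 0.40 (interval -0.01 to 0.81). Mcm2 stood at 10.03, 13.3 and 15.5 RPKM after IL-2 and at 10.3, 12.1 and 8.77 RPKM after IL-2-REH, and replicate 3 carried most of the difference. Prim2 stood at 2.31, 3.67 and 2.28 RPKM after IL-2 and at 3.67, 4.25 and 3.41 RPKM after IL-2-REH, higher in each same-numbered pair.

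**Figure D3:**
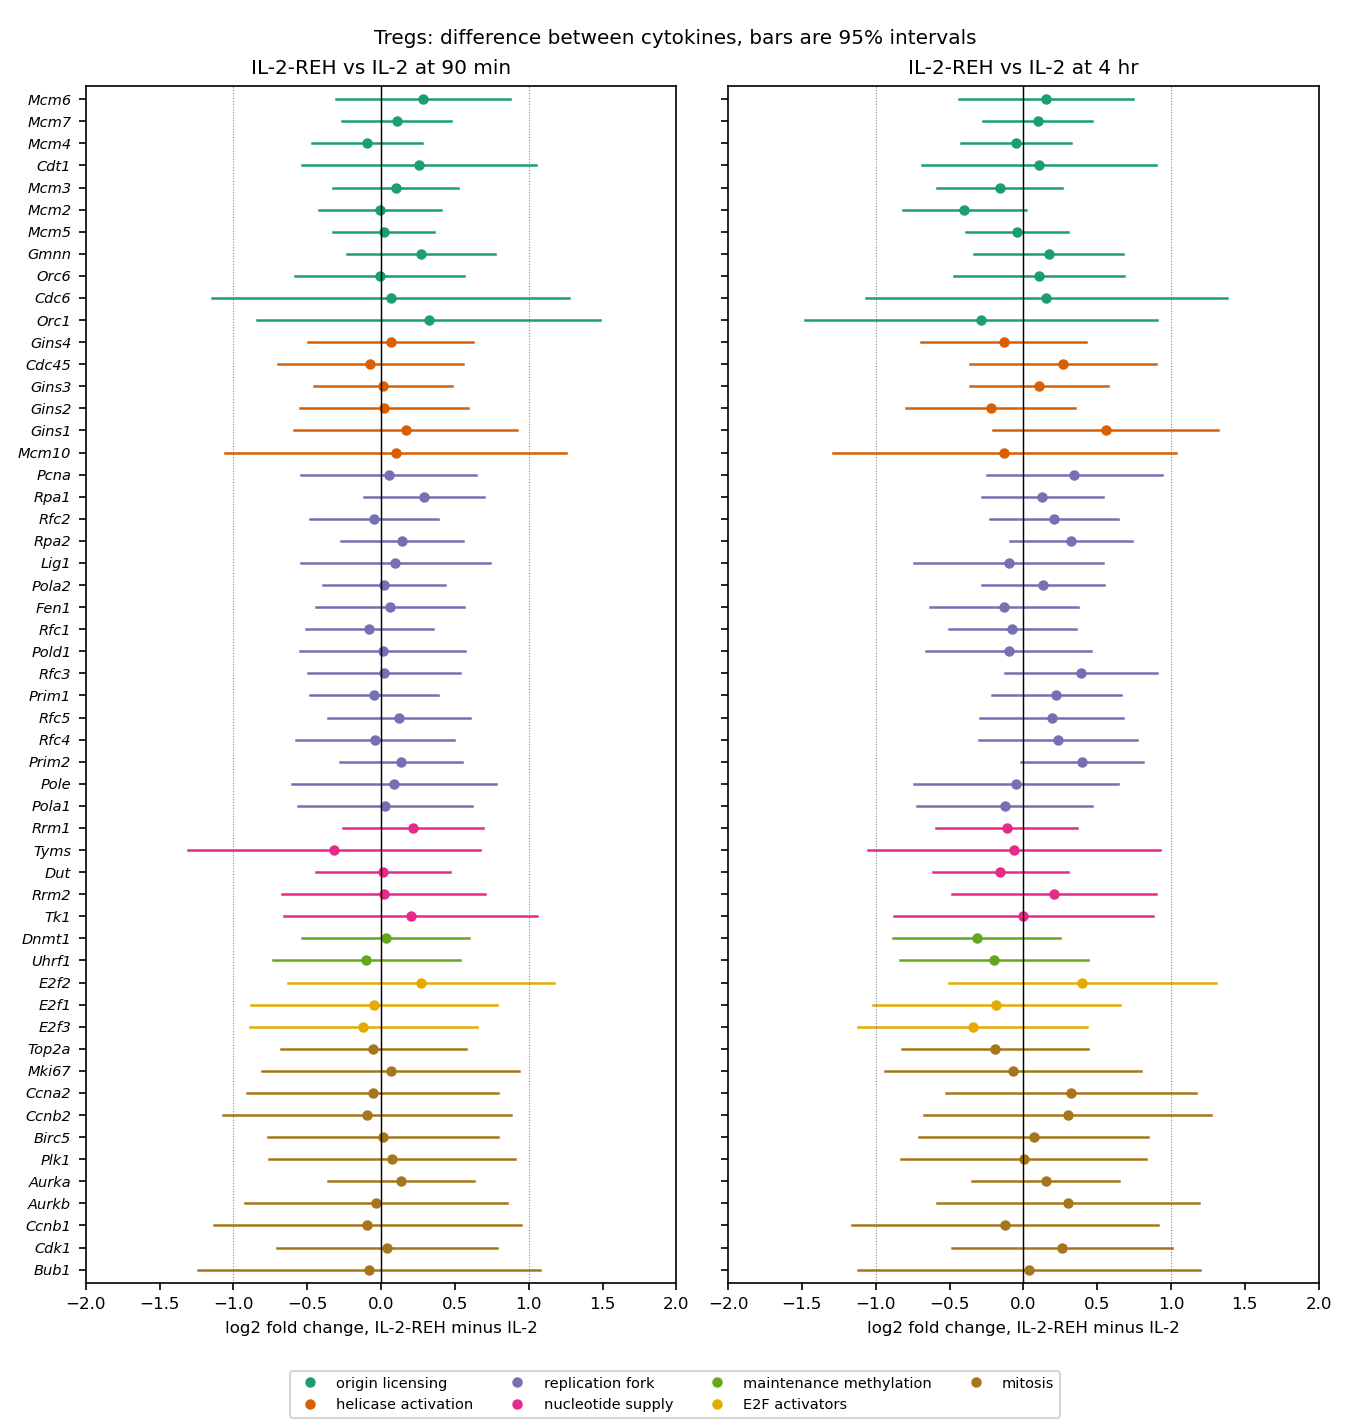
Log2 difference of IL-2-REH from IL-2 at 200 nM for each of the 54 genes in Tregs, at 90 min and at 4 hr, coloured by role. Bars are 95% intervals from the edgeR fit without the replicate block. Dotted lines mark 2-fold either way, and the intervals of 44 genes at 90 min and of 40 genes at 4 hr stayed between them.

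The change from 90 min to 4 hr was compared within each cytokine. Of the 54 genes 0 were called for IL-2 (0.0% of all genes) and 0 for IL-2-REH (0.0% of all genes), with 8 of 54 in each at an unadjusted p under 0.05, 5 higher and 3 lower. DESeq2 called Pcna for IL-2 (2.49% of all genes) and Rfc2 and Rrm1 for IL-2-REH (1.71% of all), and limma called 0 in each, with 6 and 8 at an unadjusted p under 0.05. Orc1 had the lowest log2 fold change, -1.25 ± 0.56 for IL-2 (SE, adjusted p = 0.280) and -1.86 ± 0.56 for IL-2-REH (0.248). Pcna followed for IL-2 at -1.15 ± 0.28 (adjusted p = 0.173), with all 3 values at 4 hr below all 3 at 90 min, and was -0.85 for IL-2-REH (0.252), again with no overlap. Cdc6 followed Orc1 for IL-2-REH, at -0.89.

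None of the 11 mitosis genes was called between the times, and no test set them against the other role groups. Their log2 fold change was above 0 for 11 of 11 genes for IL-2 and for 10 of 11 for IL-2-REH, with medians of 0.39 and 0.66, whereas the medians of all genes were 0.03 and 0.04. Plk1 was highest for each, at 1.196 ± 0.39 for IL-2 (SE, adjusted p = 0.210) and 1.12 ± 0.39 for IL-2-REH (0.263). It stood at 2.08, 3.65 and 2.35 RPKM after IL-2 and at 2.09, 4.08 and 2.32 RPKM after IL-2-REH at 4 hr, each above all 90 min values of the same cytokine. Birc5 stood at 2.405, 1.88 and 1.13 RPKM at 90 min and at 4.499, 2.84 and 2.91 RPKM at 4 hr after IL-2, a log2 fold change of 0.90 (adjusted p = 0.253). Cyclin B2 (Ccnb2) had a log2 fold change of 0.997 for IL-2-REH (adjusted p = 0.338). The cytokine by time interaction, that is, the change over time in the difference between cytokines, was called for 0 of 54 genes and for 0.0% of all genes, with 0 of 54 at an unadjusted p under 0.05 by edgeR and 0 called by DESeq2 and by limma.

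Other genes of the pathway gave the setting of these values. Of 40 further replication genes, 2 rose after IL-2 at 4 hr, where 2.27% of all genes were called, and none was called in the other comparisons with all 15 libraries, with between 0 and 11 at an unadjusted p under 0.05. Ticrr (treslin), which fires licensed origins with Cdc45, stood at 0.523, 1.14 and 0.741 RPKM unstimulated, at 3.44, 4.16 and 1.79 RPKM after IL-2 at 4 hr and at 0.969, 1.48 and 0.732 RPKM after IL-2-REH at 4 hr. All IL-2 values at 4 hr were above all unstimulated and all IL-2-REH values. Its log2 fold change after IL-2 was 2.05 ± 0.31 (SE, adjusted p = 0.004) at 4 hr and 1.31 (adjusted p = 0.069) at 90 min, and with the replicate block the latter was called (adjusted p = 0.009). IL-2-REH differed from IL-2 at 4 hr by -1.62 (interval -2.28 to -0.96, adjusted p = 0.137), a difference that passed the threshold with the replicate block (adjusted p = 0.023). Rnaseh2a, the catalytic subunit of RNase H2, rose after IL-2 at 4 hr by 1.14 ± 0.26 (SE, adjusted p = 0.038). Hells, a chromatin remodelling helicase, was called lower at 4 hr with the replicate block, at -1.24 for IL-2 (adjusted p = 0.020) and -1.14 for IL-2-REH (0.043). Without unstimulated replicate 1, 4 of the 40 were called for IL-2 at 90 min (Nasp, Pold2, Ticrr and Timeless) and 2 for IL-2-REH at 90 min (Nasp and Slbp). At 4 hr 2 were called for IL-2 (Ticrr and Rnaseh2a) and 0 for IL-2-REH. Of all 15494 genes that fit called 1997, 1874, 1374 and 1073 in the same order. DESeq2 called Ticrr, Rnaseh2a and Hells for IL-2 at 4 hr, and limma called Ticrr. Of 50 further mitosis genes none was called in any comparison with all 15 libraries and no block, but 11 had an unadjusted p under 0.05 in each comparison of 4 hr with 90 min, where DESeq2 called 3 for IL-2 and 2 for IL-2-REH. With the replicate block Cdc25b, a phosphatase that activates Cdk1, was called lower for IL-2 at 90 min (-0.78, adjusted p = 0.033) and higher at 4 hr than at 90 min (1.012, 0.028). Without unstimulated replicate 1, 8 of the 50 were called after each cytokine at 90 min, and 2 after each at 4 hr. At 90 min 3 were higher and 5 lower for IL-2, and 4 higher and 4 lower for IL-2-REH. The calls over all genes in that fit were the 1997, 1874, 1374 and 1073 of 15494 given above. Of 18 Rb and E2F regulators none was called in any comparison with all 15 libraries or with the block, with 0 to 3 at an unadjusted p under 0.05. DESeq2 called 1 of them, Ccne2, lower at 4 hr than at 90 min after IL-2, and limma none. Without unstimulated replicate 1, Lin54, a subunit of the complex that binds CHR elements, was called higher at 90 min for IL-2 (1.44, adjusted p = 0.013) and IL-2-REH (1.57, 0.009). The pocket protein Rbl1 was called lower for each (-0.91, 0.038 and 0.038), and Lin52 higher for IL-2-REH. Over all genes, 1098 and 1077 were called higher and 899 and 797 lower at 90 min in that fit, for IL-2 and IL-2-REH.

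With a single CD8+ library in each group, differences in these cells have no replicate check and no test was made. Differences are given as log2 ratios of RPKM + 1, and intervals are exact 95% intervals of the read ratio without the added 1, which cover counting error only. Of the 54 genes, 47 reached 1 RPKM on average over the 5 libraries. None of the 47 passed a log2 ratio of 1 either way in any comparison. Among all 10021 genes the shares past it were 7.24% and 8.57% for IL-2 and IL-2-REH at 90 min, 4.71% and 6.11% at 4 hr, 0.868% and 2.23% between cytokines at 90 min and 4 hr, and 2.0% and 1.89% between times for IL-2 and IL-2-REH.

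E2f2 was also the lowest of the 47 in CD8+ T cells at 90 min. It stood at 3.06 RPKM unstimulated, 1.05 after IL-2 and 1.06 after IL-2-REH at 90 min, and 1.37 and 1.60 at 4 hr. The ratio was -0.98 for each cytokine at 90 min (intervals of the read ratio -1.72 to -1.36 and -1.72 to -1.34), -0.77 for IL-2 at 4 hr and -0.64 for IL-2-REH at 4 hr. The summed RPKM of the 7 IL-2 response genes was 86.3 unstimulated, 207 after IL-2 and 48.2 after IL-2-REH at 90 min. Cytokine and time in culture cannot be told apart in the E2f2 values. Tk1, with 2.27 RPKM unstimulated and 0.868 to 1.197 RPKM with cytokine, gave -0.78 for IL-2 at 90 min and -0.62 and -0.81 at 4 hr. Ccnb2 gave -0.76 and -0.81 at 90 min, Rfc1 gave -0.97 for IL-2-REH at 90 min from 15.3 to 7.29 RPKM, and the dUTPase Dut gave -0.63 and -0.88 at 4 hr. The unstimulated CD8+ library also held the highest macrophage marker sum of the 5, 34.2 RPKM against 13.0 to 19.5. Its NK marker sum was highest too, 30.3 against 11.7 to 16.3, and Eomes made 22.4 of the 30.3. Ncr1 and Klrb1c were 3.99 and 3.85 there, against 0.988 to 3.54 and 1.31 to 2.83 in the other CD8+ libraries. The part of such cells in the result was not tested.

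At the upper end, Mcm6 gave 0.52 and 0.60 at 90 min, from 31.6 to 45.7 and 48.4 RPKM, and 0.28 for IL-2 at 4 hr. The licensing inhibitor Gmnn (0.46) and Cdc45 (0.36) followed for IL-2 at 90 min, and E2f1 (0.37) and Cdt1 (0.34) for IL-2-REH at 90 min. At 4 hr the DNA ligase Lig1 was highest at 0.60 and 0.56, from 7.34 to 11.6 and 11.3 RPKM, followed by the polymerase subunit Pole at 0.39 and 0.48 and by the primase subunit Prim1 at 0.44 for IL-2-REH.

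Between the cytokines at 90 min the CD8+ ratios lay between -0.28 for Uhrf1 and 0.21 for Tk1, with Mcm5 at -0.25, Top2a at -0.24, Gins2 at 0.19 and Rpa1 at 0.14 next to the ends. The Tk1 and Gins2 intervals held 0. At 4 hr Uhrf1 was lower after IL-2-REH by -0.59 (interval of the read ratio -0.87 to -0.61), Mcm2 by -0.48 and the flap nuclease Fen1 by -0.34, whereas Gmnn was higher by 0.30, Gins4 by 0.22 and Rpa1 by 0.21. Mcm2 was also the lowest difference in Tregs at 4 hr. From 90 min to 4 hr, the polymerase subunit Pold1 was highest for both cytokines, 0.74 and 0.73, followed by Lig1 at 0.50 and 0.55, Ccnb2 at 0.36 for IL-2 and Rfc2 at 0.53 for IL-2-REH. The lowest were Rpa1 at -0.47, Gmnn at -0.39 and Cdc45 at -0.38 for IL-2, and Cdc45 at -0.49, Pcna at -0.47 and Mcm6 at -0.42 for IL-2-REH.

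Levels of most of the 54 genes overlapped between the cell types. In unstimulated cells the CD8+ library lay below all 3 Treg libraries for 17 genes, within their range for 29 and above it for 8, and without Treg unstimulated replicate 1 it lay below for 35. It lay below for 22 and 26 genes after IL-2 and IL-2-REH at 90 min and for 16 and 25 at 4 hr. A single CD8+ library was set against few Treg libraries here. These counts are given without a share over all genes and are not read as high or low. Over all conditions, no gene had all 5 CD8+ libraries below all 15 Treg libraries, where 7.63% of 10473 genes had, and 3 genes had all of them above, where 2.253% had. These were all DNA polymerase subunits of the fork. Pola2, the accessory subunit of polymerase alpha, ranged from 4.67 to 9.90 RPKM in Tregs and from 11.4 to 12.7 RPKM in CD8+ T cells. Prim1, the catalytic primase subunit, ranged from 3.77 to 6.74 RPKM in Tregs and from 7.996 to 11.2 RPKM in CD8+ T cells. Pole, the catalytic subunit of polymerase epsilon, ranged from 1.10 to 2.73 RPKM in Tregs and from 2.80 to 4.30 RPKM in CD8+ T cells.

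The ratio of the Treg mean to the CD8+ mean had a median of 1.14 over the 54 genes, 1.79 over the mitosis genes, 1.10 over the origin licensing genes and 0.85 over the fork genes. It was highest for Tk1 at 2.65, Orc1 at 2.43 and Birc5 at 2.19, and lowest for Pole at 0.53. Since cell type, mouse strain and isolation method changed together, they cannot be told apart in these ratios.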

How the data were processed

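Single-end mRNA reads of 15 Treg and 5 CD8+ libraries were aligned by the authors to mm10 and uniquely mapped reads on exons were counted. The submitters' processing notes name Bowtie2 2.2.6, TopHat2 2.1.1, SAMtools 0.1.8, bedtools 2.25.0 and edgeR. The deposited read counts per transcript were not normalized, and the deposited RPKM values were scaled by the authors to exon length and mapped reads. Reads on genes numbered 20201392 to 63903764 per library. PCR duplicates carry no molecular identifiers, so intervals in CD8+ T cells cover counting error only.

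Groups, doses and times came from the sample records. Treg counts were tested with edgeR 4.0.16 in R 4.3.3 (TMM, filterByExpr, quasi-likelihood F-test, 1 mean per group over 15 libraries, 10 residual degrees of freedom), which kept 15009 genes, and p-values were adjusted over all of them by the Benjamini-Hochberg method with a threshold of 0.05. CD8+ values are log2 ratios with a pseudocount of 1 over genes whose 5 CD8+ values averaged 1 RPKM or more. Same-numbered Treg libraries deviated together from their group means across genes. For replicates 1, 2 and 3 the correlations were 0.50, 0.55 and 0.42 in IL-2 at 90 min against unstimulated. They were 0.84, 0.77 and 0.66 in IL-2-REH against IL-2 at 90 min, and 0.79, 0.76 and 0.37 at 4 hr. The lowest in any comparison was 0.12. The numbers in the titles were therefore taken as pairs and used as a block in an alternative fit. Other alternatives were DESeq2 1.42.0, limma 3.58.1 on log2(RPKM + 1) or + 0.1, DESeq2 size factors in edgeR, other filters, the longest transcript, a fit of only the groups compared, and leaving out replicates or single libraries. The fits were tested on simulated counts.

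Genes named in full were those called, the 2 most abundant of each role group, Mki67 and Top2a, the 2 highest and 2 lowest log2 fold changes in each Treg comparison and the 3 highest and 3 lowest in each CD8+ comparison. Mcm5, Rfc1, Rfc4, Rrm2, Pola2, Prim1, Pole, Ccne2 and some others were added after their values were seen. The members and lists were chosen with earlier results of these data known. Adgre1 and Trac, 2 of the listed marker genes, had no values here. Tables were handled with pandas 2.3.3, numpy 2.4.6 and scipy 1.17.1.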

Additional observations from a re-analysis of the deposited data

Results flagged for a closer look

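On the RPKM scale, Cdc45 and Birc5 changed sign between the times after IL-2. In log2(RPKM + 1) differences of same-numbered Treg pairs, Cdc45 was higher than in unstimulated cells in all 3 pairs at 90 min (mean 0.0946) and lower in all 3 at 4 hr (mean -0.3975). Birc5 was lower in all 3 pairs at 90 min (mean -0.3176) and higher in all 3 at 4 hr (mean 0.3441). This opposite movement of the pairs was not itself tested. In edgeR's quasi-likelihood test of 4 hr against 90 min the log2 fold change was -0.76 for Cdc45 (adjusted p = 0.239) and 0.90 for Birc5 (0.253).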

How the results depend on the processing

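Counts of the 54 genes called against unstimulated Tregs were 0 for IL-2 and IL-2-REH at 90 min and at 4 hr. With the replicate block they were 1, 0, 3 and 1, and the block changed no other call of the 54 genes. With DESeq2 they were 1, 0, 4 and 0, and for 4 hr against 90 min 1 for IL-2 and 2 for IL-2-REH. Over fits that left out a replicate or a library they ranged from 0 to 4, 0 to 5, 0 to 6 and 0 to 4, and for 4 hr against 90 min from 0 to 2 for IL-2 and from 0 to 4 for IL-2-REH. The highest came without replicate 1 of all groups, except 5 for IL-2-REH at 90 min, which came without unstimulated replicate 1 alone. With the block and without that library, an alternative chosen after seeing the data, the counts were 10, 12, 9 and 8, and 5 and 7 between times. They are given without a count over all genes and are not read as high or low. No setting called any of the 54 between the cytokines. The cause of these moves was not tested.

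Over all genes, the fit reported called 128, 14, 341 and 47. The block gave 275, 32, 1038 and 455, DESeq2 gave 553, 110, 1016 and 565, and there were 1997, 1874, 1374 and 1073 without unstimulated replicate 1. Without replicate 1 of all groups there were 2509, 2269, 1937 and 1545 of 14477. Between times that fit called 625 for IL-2 and 574 for IL-2-REH. Fitting only the groups compared called 31, 0, 15 and 1. Leaving out 1 library moved the 90 min cytokine difference of E2f3 from -0.12 to between -0.40 and 0.15, reversed at 0.15 without IL-2-REH replicate 1 and 0.11 without IL-2 replicate 2, and that of Orc1 from 0.32 to between -0.057 and 0.69, reversed at -0.057 without IL-2 replicate 1 and -0.01 without IL-2-REH replicate 2.

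In CD8+ T cells a pseudocount of 0.1 put 3 and 3 of the 47 genes past a log2 ratio of 1 for IL-2 and IL-2-REH at 90 min and 1 and 2 at 4 hr. A threshold of 0.5 gave 7, 11, 5 and 6, then 1 between cytokines at 4 hr, and 2 and 3 between times. These counts at other settings are given without a share over all genes and are not read as high or low. Genes below the unstimulated Treg libraries numbered 35 without Treg unstimulated replicate 1 and 17 with it, again without a share over all genes. Low counts limit Gins1, with as few as 19 reads, and Orc1 and Cdc6, with as few as 21.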
